A study of Nannospalax ehrenbergi and Mus musculus with 14 samples.

Results

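The miR-183, miR-96 and miR-182 cluster is a set of neighboring microRNA genes. Its members were taken as every row of both deposited tables whose name without the arm ending is miR-182, miR-183 or miR-96, which gave 6 of 1326 microRNA names, a 5p and a 3p arm for each hairpin. Of these 6 names, the 3 5p arms passed the filter on low values in each table, where they stood among 447 *Spalax* and 547 mouse microRNAs tested, and the 3 3p arms did not. Small RNA was sequenced in 14 libraries of muscle tissue and tumor from *Spalax*, the blind mole rat, and from C57BL/6 mice after a single subcutaneous injection of the carcinogen 3-methylcholanthrene (3MCA) into the neck. The injected side (IS) is the tumor and the uninjected side (UIS) is the opposite side of the neck of the same treated animals, so that no library here came from an untreated animal. *Spalax* Sp600 and Sp976, both female, bore benign granulomas 14 and 16 months after 1 mg of 3MCA in 500 µl. *Spalax* Sp2240, a female, and Sp2230, a male, bore malignant fibrosarcomas 18 and 30 months after the same dose. The male mice M512, M1023 and M1019 bore fibrosarcomas 11, 12 and 14 weeks after 200 µg in 200 µl. The mice were 3 to 4 months old, and the *Spalax*, which were caught in the field, were of about 2 years or of 10 years and older, without an age for each animal. Sp and M with a number name single animals of each species. The labels list both sides for every animal, but 1 mouse UIS column carries the number of no listed animal, where that of mouse M1019 would stand. This library entered its group without a pair, so that values within animals cover 6 animals and leave out mouse M1019.

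The cluster members are made from a shared primary transcript that is cut into separate hairpins, each of which gives a mature microRNA from its 5p arm and, at lower levels, one from its 3p arm. The family is best known from sensory organs, where it is abundant in photoreceptors and hair cells and where mutations in miR-96 cause hearing loss, and from carcinomas, in which it is often high. FOXO1, a transcription factor that restrains growth and a gene of interest in the study, is a known target of its members. Because they share a transcript, the question put to these libraries was whether the 3 members move together from the UIS to the IS in each animal.

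In the mouse annotation (GENCODE M21, build GRCm38) the genes lie on the minus strand of chromosome 6 within 3820 bp, at chr6:30169668-30169737 for Mir183, chr6:30169446-30169551 for Mir96 and chr6:30165918-30165992 for Mir182. Mir183 and Mir96 are 116 bp apart and Mir182 lies 3453 bp further on. No other annotated gene overlaps the span, which is therefore intergenic, with the lincRNA gene Rncr4 3155 bp away on one side and the protein-coding gene Nrf1 12459 bp away on the other. The mouse hairpins, as DNA letters from 5′ to 3′, are shown because the members are told apart by these letters while resembling each other in part of the 5p arm. Capitals mark TGGCA, the run of 5 letters that all 3 hairpins share near the start of the 5p arm.
Mir183: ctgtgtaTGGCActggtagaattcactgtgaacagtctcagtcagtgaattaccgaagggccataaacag
Mir96: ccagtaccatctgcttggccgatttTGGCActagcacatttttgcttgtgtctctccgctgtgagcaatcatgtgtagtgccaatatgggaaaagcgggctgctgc
Mir182: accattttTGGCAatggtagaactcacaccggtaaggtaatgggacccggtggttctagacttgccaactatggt

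TGGCA begins at base 8 of Mir183, 26 of Mir96 and 9 of Mir182, and 227 of the 2202 annotated mouse hairpins (10.3%) hold it on their own strand. The longest runs shared by pairs were TGGCACT for Mir183 and Mir96, TGGTAGAA for Mir183 and Mir182, and TTTTGGCA and CATTTTTG for Mir96 and Mir182. With no longer run in common, the 3 hairpins remain distinct sequences. *Spalax* reads were counted under these mouse names, and the *Spalax* sequences were not used here.

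Tumor libraries were shallower, with 2034574 to 9574014 microRNA reads, than UIS libraries, with 11446933 to 13982842, and 3 reads correspond to between 2.15e-05% and 0.000147% of a library. The tissue labels were checked against marker lists. Skeletal muscle microRNAs took 27.7% to 37.3% of the reads at the UIS and 0.00959% to 3.95% at the IS. Leukocyte microRNAs took 0.0718% to 0.145% at the UIS and 0.401% to 2.62% at the IS. Neural microRNAs took 0.00318% to 0.00905% at the UIS and 0.0308% to 1.78% at the IS, while miR-124-3p, their defining marker, had 0 reads in the 3 mouse IS libraries. The part of these cell types in the levels of the cluster was not tested. A normalized count below is a deposited value, that is reads divided by a size factor of the library, and the choice of this factor bears on every level: scaling to library totals instead moved the median log2 change of all microRNAs to 1.90 instead of 0.13 for granuloma, to 1.40 instead of -0.23 for *Spalax* fibrosarcoma, and to 2.58 instead of 0.21 for the mouse tumors. Summed as normalized counts, leukocyte microRNAs were at 15378 to 81932 at the mouse IS and 18079 to 22543 at the mouse UIS. The lowest of these was the IS of mouse M512. In *Spalax* they were at 39468 to 115774 at the IS and 11288 to 16253 at the UIS.

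miR-182-5p was the most abundant member in each of the 14 libraries, miR-183-5p came next and miR-96-5p was the least abundant. Counted by reads among all microRNAs of a library, miR-182-5p stood at rank 28 at the IS of Sp976 and 29 at the IS of mouse M512, its highest positions, and at rank 202 at the UIS of Sp2240, its lowest. In Sp600, miR-182-5p had a normalized count of 1140 at the IS and 203 at the UIS. In Sp976 it had 27525 and 611. Both IS values lay above both UIS values of the granuloma animals, a separation found for 41.4% of the 447 microRNAs tested. In the fibrosarcoma animals the counts of miR-182-5p were 1986 in the tumor of Sp2230 and 589 on its other side, and 336 and 167 in Sp2240. Each IS was above the UIS of its own animal, but the IS of Sp2240 was below the UIS of Sp2230, so that the 2 groups overlapped. The library of Sp976 IS stood far above the other *Spalax* libraries and decided the group mean, 14332 ± 18658 (SD, n = 2) against 407 ± 289 at the UIS.

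In mice, miR-182-5p did not separate the sides as a normalized count. Its normalized counts at the IS were 3536 in mouse M1019, 4869 in mouse M1023 and 26846 in mouse M512. At the UIS they were 15721 in mouse M1023, 3046 in mouse M512 and 6995 in the unpaired library. Mouse M512 was high at the IS, whereas mouse M1023 was high at the UIS, 3.23-fold over its own tumor. As a share of reads, each mouse IS library (0.102% to 0.699%) lay above each UIS library (0.0113% to 0.0851%). Mouse M1023 was then 1.40-fold higher at the IS. On that scale, however, the median log2 change of all microRNAs in the mouse tumors was 2.58.

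miR-183-5p was likewise higher at the IS of each *Spalax*, at a lower level. Its normalized counts at the IS and the UIS were 337 and 77.9 in Sp600, and 6481 and 249 in Sp976. They were 680 and 366 in Sp2230, and 158 and 81.8 in Sp2240. Again the granuloma sides did not overlap, like those of 41.4% of all microRNAs tested, and the fibrosarcoma sides did, the IS of Sp2240 being below both values of Sp2230. In mice the IS had 1481 in mouse M1019, 2556 in mouse M1023 and 12290 in mouse M512. The mouse UIS libraries were close to each other, with 1441 in mouse M1023, 1872 in mouse M512 and 1078 in the unpaired library. Here mouse M1023 was higher at the IS, unlike for miR-182-5p, and only the IS of mouse M1019 fell inside the range of the UIS.

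miR-96-5p, the member known from inherited deafness, was present in few reads. In the granuloma animals it had 12 reads in the tumor and 1 on the other side of Sp600, and 169 and 5 in Sp976. In the fibrosarcoma animals it had 46 and 2 reads in Sp2230, and 2 and 2 in Sp2240. As normalized counts these were 15.0 and 1.42, 214 and 6.35, 25.0 and 2.41, and 4.34 and 2.15. In *Spalax* it reached the filter value of 10 in 3 IS libraries and in no UIS library, so that it was tested because of the side on which it was high. In mice the IS had 28.3, 44.1 and 246 in mice M1019, M1023 and M512, and the UIS had 17.8, 19.2 and 9.50 in mouse M1023, mouse M512 and the unpaired library. Thus miR-96-5p did not overlap between the sides in any tumor type, with the IS higher, as was so for 41.4% of the microRNAs tested in granuloma, 32.2% in *Spalax* fibrosarcoma and 36.6% in mice, but the gap in *Spalax* fibrosarcoma lies between libraries with 2 reads each. In mice it rests on 61 to 221 reads at the IS and 7 to 13 at the UIS.

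**Figure D1:**
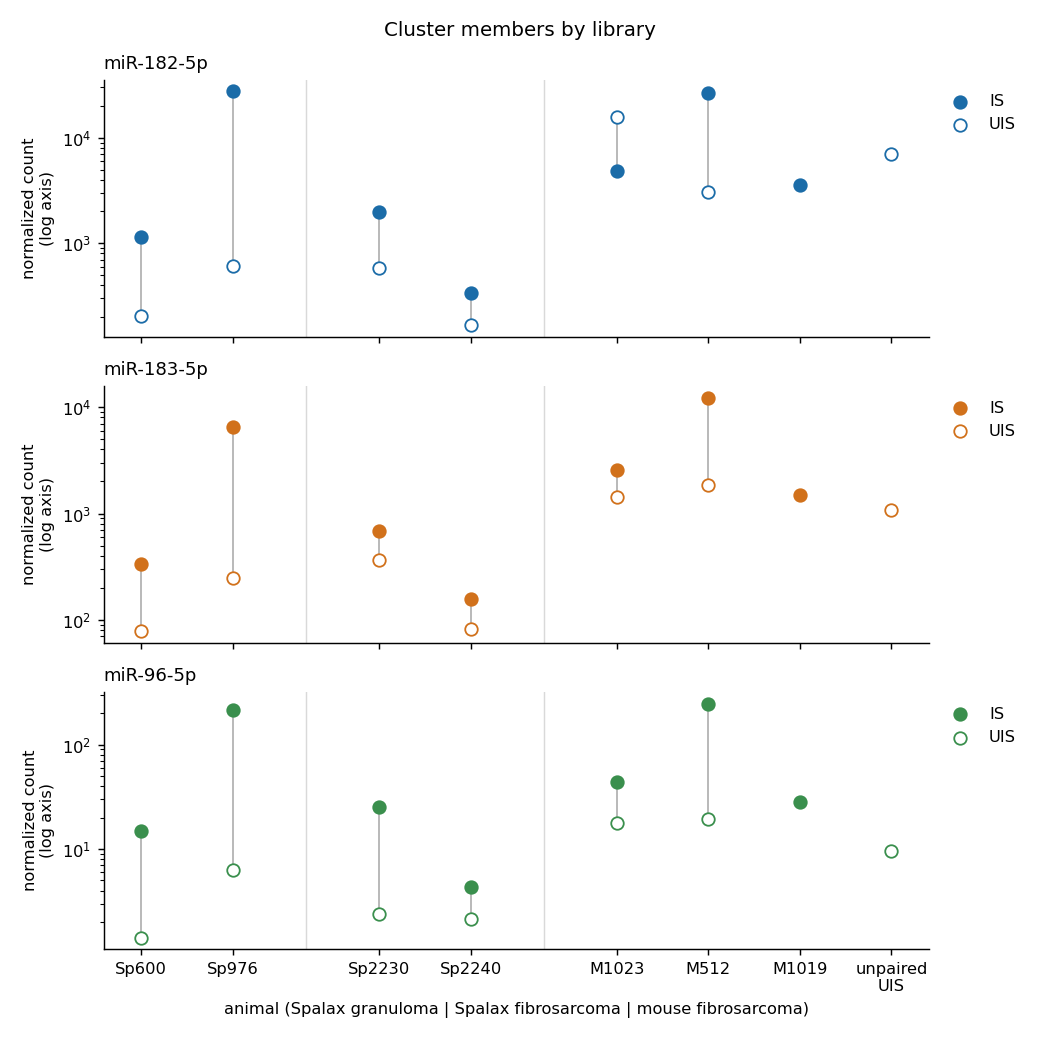
Normalized counts of miR-182-5p, miR-183-5p and miR-96-5p in the 14 libraries, on log axes, by animal; filled points are the IS, open points the UIS, and a line joins the sides of an animal. All lines run upwards from the UIS to the IS except that of miR-182-5p in mouse M1023, and the IS of Sp976 and of mouse M512 are the highest points of each panel in their species.

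As a share of all reads, the cluster together took 0.0334% of the tumor library and 0.00173% of the UIS library of Sp600, and 0.765% and 0.00552% in Sp976. It took 0.0619% and 0.00675% in Sp2230, and 0.0114% and 0.00179% in Sp2240. In mice the shares were 0.146% at the IS of mouse M1019, 0.183% and 0.0930% in mouse M1023, 1.03% and 0.0184% in mouse M512, and 0.0520% in the unpaired UIS library. The share was higher at the IS in every paired animal, also in mouse M1023, but on this scale so were 54.8% of the 403 microRNAs tested in both tables when taken singly. In these bulk samples a larger number of cells that express the cluster and a higher level per cell cannot be told apart.

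Reads of the 3p arms were rare. miR-182-3p had 14 reads over all libraries beside 86551 of the 5p arm (0.0162%), miR-183-3p 115 beside 28838 (0.397%), and miR-96-3p 6 beside 629 (0.945%). The 14 reads of miR-182-3p came from 4 of the 7 IS libraries and none from the 7 UIS libraries. The largest number of 3p reads was that of miR-183-3p at the IS of mouse M512, 46 reads, in the library that also led for the 5p arms of the mice. In mice miR-183-3p had 20 reads at the IS of M1019 and of M1023, and 6, 2 and 1 at the UIS of M1023, of M512 and in the unpaired library. As a share of reads, each of the 3 IS intervals (the lowest from 0.000128% to 0.000323%) lay above each UIS interval (the highest from 1.64e-05% to 9.70e-05%). On that scale, however, the median log2 change of all microRNAs in the mouse tumors was 2.58. Of the 403 microRNAs tested in both tables, 54.8% were then higher at the IS in every paired animal. The share of all microRNAs whose intervals separate in this way was not computed. As normalized counts the sides overlapped, with 7.25 at the IS of M1019 and 8.24 at the UIS of M1023, and this arm, which did not pass the filter, was not tested.

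The ratio of 2 members within a library does not depend on the size factor. For every 100 reads of miR-182-5p, *Spalax* libraries held 23.5 to 62.2 reads of miR-183-5p, a 2.64-fold range, while miR-182-5p itself ranged 165-fold and miR-183-5p 83.2-fold over these 8 libraries. On the log2 scale the SD of the ratio was 0.44, beside 2.36 for the level of miR-182-5p and 2.04 for that of miR-183-5p. The proportion of these members thus varied far less than their levels in *Spalax*. The ratio was lower at the IS than at the UIS in all 4 *Spalax*, by 0.06 to 0.86 on the log2 scale. In Sp976, the animal with the highest tumor level, it was 23.5 at the IS (95% Clopper-Pearson interval 22.8 to 24.3) and 40.7 at the UIS (34.3 to 48.2), and these intervals, which cover counting error only, did not overlap. Nor did those of Sp2230, 32.1 to 36.5 at the IS and 53.7 to 71.9 at the UIS. They overlapped in Sp600, with 25.7 to 33.9 and 27.7 to 52.8, and in Sp2240, with 35.2 to 62.6 and 36.8 to 64.9.

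In mice the ratio separated the libraries in another way. The 3 IS libraries held 41.9, 52.5 and 45.8 reads of miR-183-5p per 100 of miR-182-5p in mice M1019, M1023 and M512, a 1.25-fold range over tumors whose miR-182-5p ranged 7.59-fold. The UIS of mouse M512 held 61.5 (56.7 to 66.6). The UIS of mouse M1023 held 9.17 (8.60 to 9.77) and the unpaired UIS library 15.4 (14.3 to 16.6), below every one of the other 12 libraries of both species. Reads of miR-96-5p showed the same split, with 0.800, 0.905 and 0.915 per 100 of miR-182-5p in the 3 tumors and 0.631 (0.302 to 1.16) at the UIS of mouse M512, beside 0.114 (0.0604 to 0.194) at the UIS of mouse M1023 and 0.136 (0.0546 to 0.280) in the unpaired library. In 2 of the 3 mouse UIS libraries, therefore, miR-182-5p was in excess of both other members. Between miR-96-5p and miR-183-5p the mouse ratio stayed within a 2.27-fold range, but it was 1.72 to 2.00 per 100 at the IS and 0.882 to 1.24 at the UIS, without overlap. In all 6 paired animals this ratio was higher at the IS, by 0.06 to 2.48 on the log2 scale, and the counting intervals of both sides overlapped in each of them except Sp2230, where the ratio was 3.68 (2.68 to 4.94) at the IS and 0.658 (0.0793 to 2.40) at the UIS.

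As a normalized count, another microRNA, picked from the epithelial marker list after its values were seen, was high in the same 2 UIS libraries. miR-203-3p, known from stratified epithelium, had 3233 normalized counts at the UIS of mouse M1023 and 2442 in the unpaired library, against 603 at the UIS of mouse M512 and 223 to 592 at the mouse IS. Summed as normalized counts, the whole epithelial list was at 815 to 3341 at the mouse UIS and 312 to 851 at the IS. As a share of reads it took 0.00303% to 0.0181% at the UIS and 0.00813% to 0.0245% at the IS. The side with the higher range thus depended on the scale. In limma 1 of its 4 members tested, miR-203-3p itself, was lower and 0 were higher at the IS. Of the 547 microRNAs tested in mice, 57.8% were called in either direction. The defining markers of this list were low throughout, miR-200c-3p at 2.22 to 32.5 and miR-205-5p at 6.02 to 113 in all libraries. In *Spalax* the list summed to 80.6 to 150 at the UIS and to 107 to 611 at the IS, and its highest library was the IS of Sp976, where miR-203-3p had 528. The part of epithelial RNA in the levels of miR-182-5p was not tested.

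**Figure D2:**
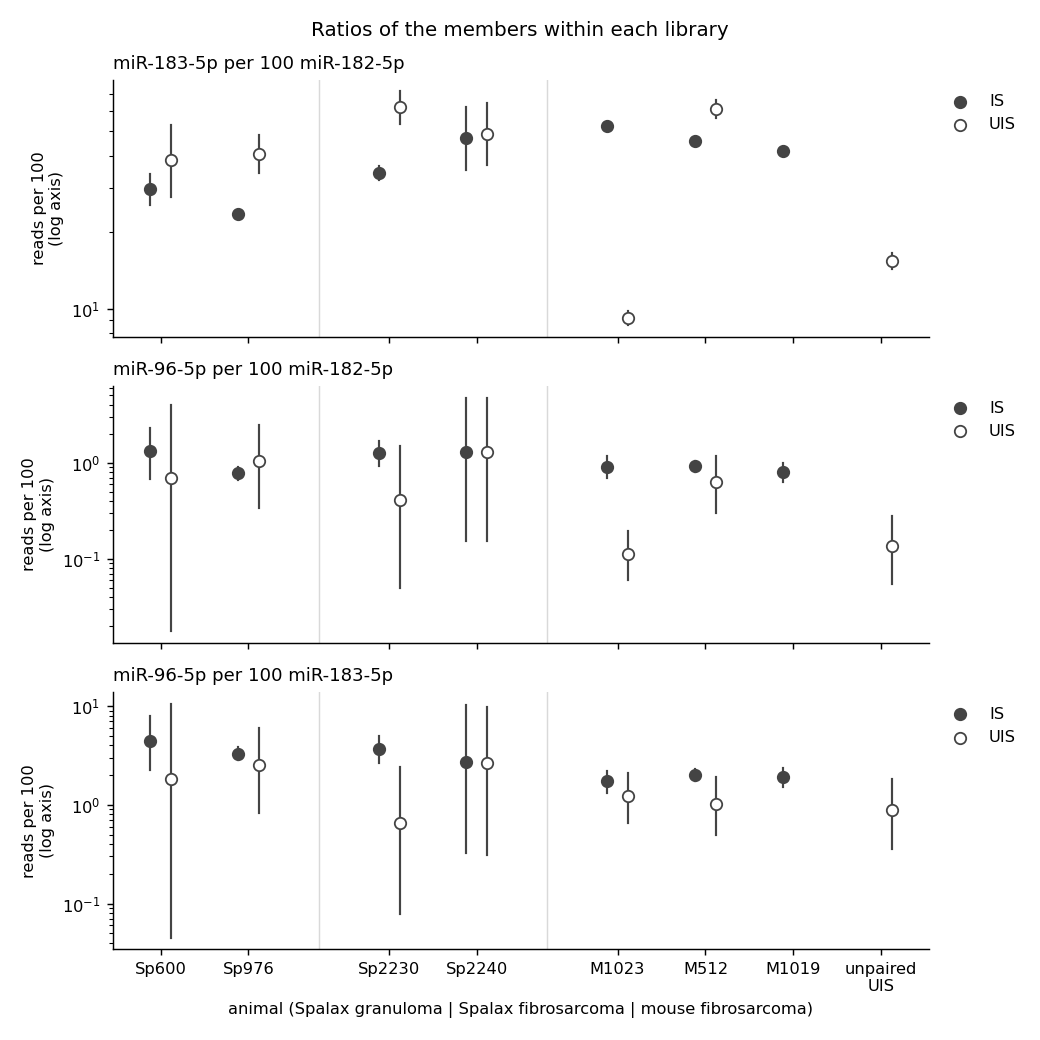
Reads of one member per 100 reads of another in each library, on log axes, by animal; filled points are the IS, open points the UIS, and bars are 95% Clopper-Pearson intervals, which cover counting error only. In the upper panels the UIS of mouse M1023 and the unpaired UIS library lie below all others, at 9.17 and 15.4 reads of miR-183-5p per 100 of miR-182-5p, whereas in the lowest panel the mouse points lie between 0.882 and 2.00.

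The change within each animal, on the log2(normalized count + 1) scale, showed the members side by side. In Sp600 miR-182-5p, miR-183-5p and miR-96-5p were higher at the IS by 2.49, 2.10 and 2.72. In Sp976 the differences were 5.49, 4.70 and 4.87. The 2 granulomas thus differed from each other more than the members did within either. In Sp2230 the differences were 1.75, 0.89 and 2.93, and in Sp2240 they were 1.01, 0.94 and 0.76. In Sp2240 the reads themselves were equal for miR-182-5p, 155 at each side, of 2034574 reads in the tumor library and 13046355 in the other. In mouse M512 all members were higher at the IS, by 3.14, 2.71 and 3.61. In mouse M1023 miR-183-5p and miR-96-5p were higher by 0.83 and 1.26 while miR-182-5p was lower, at -1.69. Against the median of 403 microRNAs tested in both tables, miR-182-5p of mouse M1023 lay at -1.52, and with library totals as the scale it lay at -1.52 from the median as well, although its own difference was then 0.49 and no longer below 0.

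The folds of miR-96-5p rest on few reads in *Spalax*. Its IS was 10.6-fold over the UIS in Sp600, with a 95% counting interval of 1.56 to 452, and 2.02-fold in Sp2240, with an interval of 0.146 to 27.8 that includes no difference. In Sp976 it was 33.7-fold (14.2 to 105) and in Sp2230 10.4-fold (2.72 to 88.5). In mice it was 2.47-fold in mouse M1023 (1.34 to 4.90) and 12.8-fold in mouse M512 (6.82 to 27.0). The corresponding folds of miR-182-5p were 45.0 (41.1 to 49.4) in Sp976 and 0.310 (0.301 to 0.319) in mouse M1023, so that counting error is small beside the difference between these animals.

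Over the 6 paired animals, miR-183-5p and miR-96-5p were higher at the IS in 6 of 6, with mean differences of 2.03 ± 1.52 and 2.69 ± 1.51 (SD, n = 6), and the two-sided exact sign-flip permutation test gave p = 0.0312 for each, the smallest value that 6 pairs allow. miR-182-5p was higher in 5 of 6, with a mean of 2.03 ± 2.38, and the exact test gave p = 0.0938. Of the 403 microRNAs tested in both tables, 17.9% were higher at the IS in every paired animal, and 41.4% had 1 sign in all 6. These p-values are unadjusted. In *Spalax* miR-96-5p reached the filter value only in IS libraries, so that its result here is no support for a change of the cluster. In Sp2240 it had 2 reads at each side. Scaled to library totals, all 3 members were higher in 6 of 6 animals, but so were 54.8% of the 403 microRNAs, and 62% of the 403 had 1 sign.

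**Figure D3:**
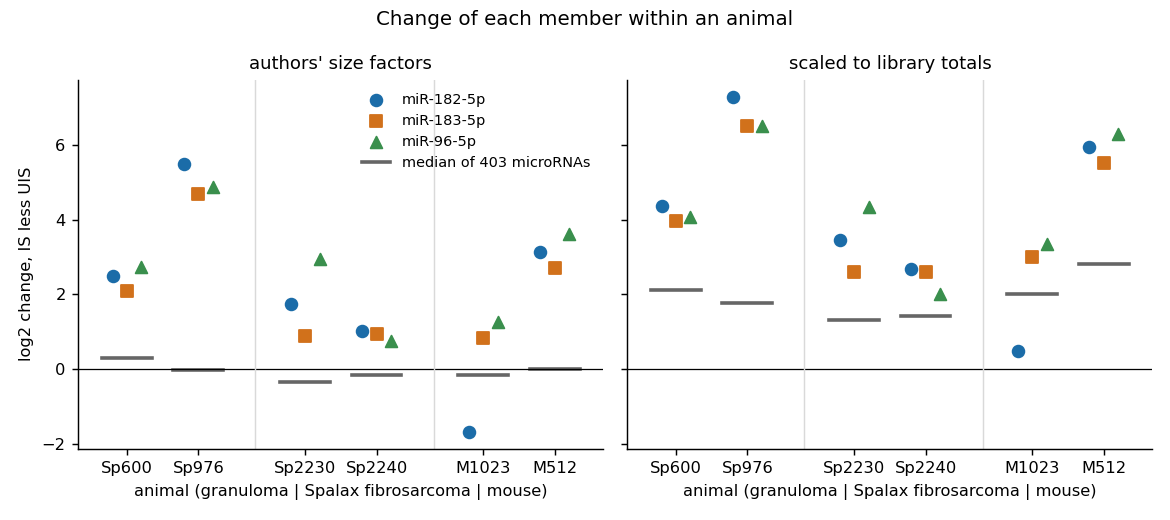
Log2 difference IS less UIS of the 3 members in each paired animal, with the authors' size factors (left) and with library totals (right); gray bars are the median of the 403 microRNAs tested in both tables. On the left the points of an animal are widest apart in mouse M1023, where miR-182-5p, at -1.69, is below the gray bar and the other members are above it, and in Sp2230, where they run from 0.89 to 2.93.

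The differences of the members varied together from animal to animal. Pearson's r over the 6 animals was 0.881 for miR-182-5p with miR-183-5p (exact permutation p = 0.0153) and Spearman's rho was 0.943 (exact p = 0.0167). For miR-182-5p with miR-96-5p r was 0.878 (exact permutation p = 0.0292) and rho 0.886 (exact p = 0.0333). For miR-183-5p with miR-96-5p r was 0.871 (exact permutation p = 0.0167) and rho 0.714 (exact p = 0.136). These are 3 relations, and their p-values are not adjusted. miR-96-5p entered the *Spalax* test only through IS libraries, so the relations that include it are no support for a joint movement of the cluster. Without the 2 animals farthest from the median, the first 2 r were 0.935 and 0.884, both without Sp976 and mouse M1023, but the last was 0.488 without Sp976 and mouse M512, so that it rests on these animals. Leaving out Sp976 alone gave 0.752 (exact permutation p = 0.117), 0.755 (exact permutation p = 0.125) and 0.731 (exact permutation p = 0.183). Over the 4 *Spalax* r was 0.985, 0.920 and 0.842, given here as a description. Each r covers 2 species and 2 tumor types, and the 2 paired mice are too few for a value of their own. Scaled to library totals, r over the 6 animals was 0.872, 0.834 and 0.890 (exact permutation p = 0.0194, 0.0444 and 0.025, unadjusted). On that scale rho was 0.771 (exact p = 0.103), 0.886 (exact p = 0.0333) and 0.657 (exact p = 0.175). The rank agreement of miR-182-5p with miR-183-5p thus depended on the scale.

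Likeness over single libraries was taken within each species, and the mouse libraries include the 2 UIS libraries in which miR-182-5p was in excess. Over the 8 *Spalax* libraries, the 2 microRNAs of the other 446 whose log2 levels were most correlated with each member were the 2 other members, with r of 0.990 for miR-182-5p with miR-183-5p, 0.974 for miR-182-5p with miR-96-5p and 0.943 for miR-183-5p with miR-96-5p. Over the 6 mouse libraries, miR-183-5p and miR-96-5p had an r of 0.974 with each other, at ranks 3 and 5 in each other's order. miR-182-5p, in contrast, had 0.610 with miR-183-5p, at rank 41 of 546 in its order, and 0.554 with miR-96-5p, at rank 58. Scaled to library totals, these mouse values were 0.871 and 0.869, at ranks 55 and 57, so that the size of r depended on the scale while other microRNAs still came before both members. These correlations are descriptions over libraries of both sides, which share the size factors of their table. Since miR-96-5p entered the *Spalax* test only through IS libraries, its ranks there are no support for a joint movement of the cluster.

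Against the mean of miR-182-5p and miR-183-5p, the 5 other microRNAs most alike in both tables were miR-212-5p, miR-132-3p, miR-132-5p, miR-212-3p and miR-542-5p, with a lower r of the 2 tables of 0.699, 0.635, 0.615, 0.608 and 0.606. miR-96-5p, the remaining member, had 0.853 and stood first. Its place among the *Spalax* microRNAs tested came only from IS libraries, so this rank is no support either. miR-132 and miR-212 are themselves neighbors that share a transcript and are known from neurons and from the response to activity. miR-132-3p had 2714 normalized counts at the IS of mouse M512, 1315 at the UIS of mouse M1023 and 900 in the unpaired UIS library, beside 252 to 421 in the other mouse libraries, so that the same 3 libraries were highest as for miR-182-5p. In *Spalax* it had 89.8 to 243 at the IS and 51.7 to 70.9 at the UIS. Scaled to library totals, only miR-212-3p of these 5 stayed among the closest 5.

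For granulomas the IS was compared with the UIS in limma over the 8 *Spalax* libraries, with the Benjamini-Hochberg adjustment over the 447 microRNAs tested. The log2 fold change was 3.99 with an SE of 1.54 for miR-182-5p, 3.40 with an SE of 1.46 for miR-183-5p and 3.80 with an SE of 1.32 for miR-96-5p. With adjusted p-values of 0.0651, 0.0914 and 0.0467, 1 of the 3 members, miR-96-5p, passed the threshold of 0.05, beside 48.3% of all microRNAs tested, with 25.5% called higher at the IS. In *Spalax* this member entered the test only through IS libraries, so that its call is no support for a change of the cluster. With the animal as a replicate block, which fits the pairing of the sides, all 3 passed, at adjusted p-values of 0.00635, 0.00797 and 0.0140, beside 47% of all microRNAs. All 3 were also called by edgeR, beside 47.4% of all microRNAs, by DESeq2, beside 52.3%, and by limma with library totals as the scale, beside 67.8%. All microRNAs tested had a median of 0.13 in this comparison, and the members lay 3.27 to 3.86 above it. Without the IS library of Sp976 the log2 fold changes were 1.69, 1.27 and 1.92 for miR-182-5p, miR-183-5p and miR-96-5p. Without the IS library of Sp600 they were 6.28, 5.53 and 5.67. Each of these fits has 1 granuloma IS library left. The call of miR-96-5p was not kept without the IS library of Sp976, either granuloma UIS library or either *Spalax* fibrosarcoma UIS library.

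For *Spalax* fibrosarcomas the log2 fold changes were smaller and none of the 3 passed, beside 37.4% of all microRNAs, with 15.2% called higher at the IS. They were 1.38 (95% interval -2.21 to 4.97, adjusted p = 0.516) for miR-182-5p, 0.92 (-2.50 to 4.34, adjusted p = 0.651) for miR-183-5p and 1.85 (-1.24 to 4.94, adjusted p = 0.308) for miR-96-5p. Blocking on the animal gave adjusted p-values of 0.195, 0.352 and 0.163, and none passed, beside 151 of the 447 microRNAs tested. The intervals include both no difference and changes as large as those of the granulomas. For miR-183-5p the direction itself depended on single libraries, since the log2 fold change was -0.13 without the IS library of Sp2230 and -0.16 without the UIS library of Sp2240.

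The granuloma change exceeded the fibrosarcoma change by 2.61, 2.48 and 1.95 on the log2 scale for miR-182-5p, miR-183-5p and miR-96-5p, but the test of this difference gave adjusted p-values of 0.573, 0.573 and 0.624, and 95% intervals from -2.47 to 7.68, -2.36 to 7.31 and -2.42 to 6.32. It was passed by 3.8% of the microRNAs tested. A difference between the tumor types was thus not resolved with 2 animals each. The uninjected sides of granuloma-bearing and fibrosarcoma-bearing *Spalax* differed by 0.17, -0.31 and 0.36 (limma, adjusted p = 1 for each). No microRNA passed in this comparison (0%), with 5 of 447 at an unadjusted p under 0.05 and 0 calls by edgeR and by DESeq2.

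For mouse fibrosarcomas the 3 members parted. The log2 fold change of miR-182-5p was 0.15 (SE 0.90, 95% interval -1.97 to 2.28, adjusted p = 0.890), close to the median of all microRNAs at 0.21. That of miR-183-5p was 1.33 (SE 0.76, -0.47 to 3.14, adjusted p = 0.170) and that of miR-96-5p 2.12 (SE 0.83, 0.15 to 4.08, adjusted p = 0.0634). None passed, beside 57.8% of the 547 tested, with 32.2% called higher at the IS. With the replicate block, which uses mice M1023 and M512 only, the log2 fold changes were 0.72, 1.77 and 2.43, with adjusted p-values of 0.577, 0.0556 and 0.0721, and none passed, beside 41.5% of all microRNAs. miR-96-5p was called by edgeR, beside 56.9% of all microRNAs, by DESeq2, beside 66.2%, and by limma without the IS library of mouse M1019, beside 51.2%, and miR-183-5p by DESeq2. Without the IS library of mouse M512 the log2 fold changes were -0.74, 0.45 and 1.19 for miR-182-5p, miR-183-5p and miR-96-5p, and without its UIS library that of miR-182-5p was -0.44. Scaled to library totals, all 3 passed, beside 73.9% of all microRNAs, at 2.54 (adjusted p = 0.0442), 3.71 (adjusted p = 0.00289) and 4.39 (adjusted p = 0.00195), where the median of all microRNAs was 2.58 and miR-182-5p was thus again at the median.

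**Figure D4:**
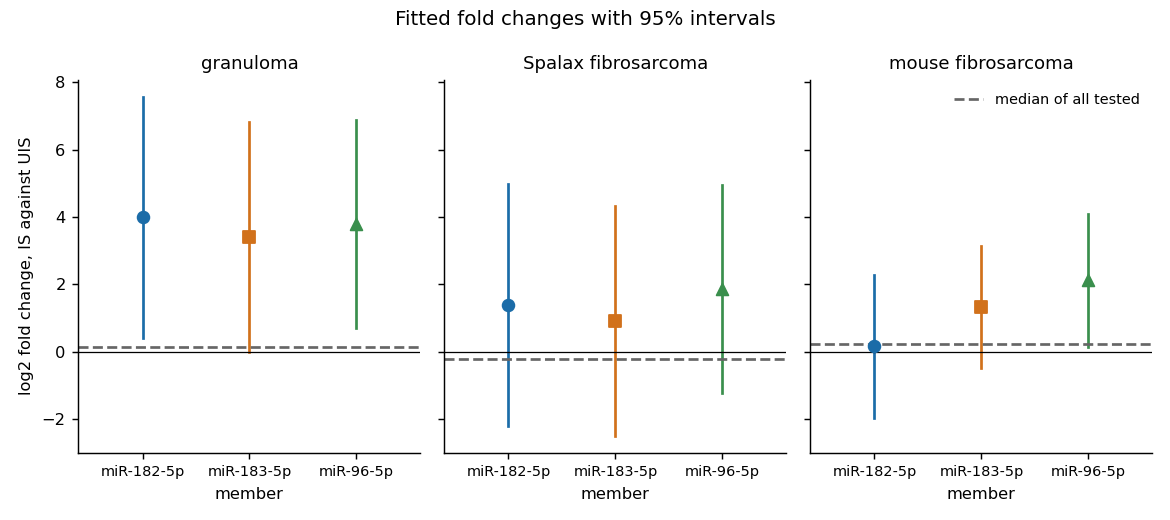
Fitted log2 fold change IS against UIS of the 3 members in each tumor type (limma, authors' size factors), with 95% intervals; the dashed line is the median of all microRNAs tested. The members lie at 3.40 to 3.99 in granuloma and at 0.92 to 1.85 in *Spalax* fibrosarcoma, whereas in mouse fibrosarcoma they spread from 0.15 for miR-182-5p to 2.12 for miR-96-5p.

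The study linked other microRNAs to FOXO1 as well. Of those linked to it, the study singled out miR-182, miR-96 and miR-223 by a pattern opposite to that of the gene. That pattern came from these same samples, so it is no independent evidence of the direction of any of the 3. Of miR-223-3p, miR-370-3p and miR-27a-3p, 2 of 3 were higher at the IS in granuloma, 1 was higher and 1 lower in *Spalax* fibrosarcoma, and 2 of 3 were higher in mouse fibrosarcoma (limma, adjusted p under 0.05). Of all microRNAs tested, 25.5%, 15.2% and 32.2% were called higher in these comparisons, and 48.3%, 37.4% and 57.8% in either direction. miR-27a-3p, which is expressed in many tissues, had log2 fold changes of -0.47, -0.06 and -0.54 and passed in none. miR-370-3p, from the imprinted cluster on another chromosome, was higher in granuloma by 3.40 (adjusted p = 0.00921) and lower in *Spalax* fibrosarcoma by a log2 fold change of -2.76 (adjusted p = 0.0242). The cluster members had positive log2 fold changes in both of these comparisons.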

How the data were processed

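Small RNA libraries were made with a TruSeq kit, and the authors trimmed the adaptors and mapped the reads with mirDeep; the build and settings of this mapping are not given in the sources used here. The authors deposited 1 table per species as a signal, namely reads divided by a size factor of each library, and in the 14 columns used here 100% of the values gave whole reads (tolerance 1e-06). In the *Spalax* table, 5 columns of mouse libraries were not used for any level or test. Reads were recovered from them, rounded, only to compare them with the mouse table, and 5 columns had 0 differing reads. Levels were tested in limma 3.58.1 (R 4.3.3) on log2(value + 1), with its trend option, for microRNAs at 10 or more in at least 2 *Spalax* or 3 mouse libraries, with the 8 *Spalax* libraries in 1 fit and the 6 mouse libraries in another, since the tables were normalized separately. The script was tested on simulated reads. Adjusted p is Benjamini-Hochberg, with a threshold of 0.05.

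Sides were paired by animal number in the labels, since both come from 1 animal; the correlation of the deviations of both sides was 0.0933 in granuloma, 0.00405 in *Spalax* fibrosarcoma, and -0.107 and 0.122 in mice M1023 and M512. Replicates were separate animals, and replicate libraries differed beyond sampling noise (chi-square per degree of freedom at least 327.1). Alternatives were totals as the scale, size factors without muscle microRNAs, edgeR 4.0.16 and DESeq2 1.42.0 on recovered reads, no filter, a pseudocount of 0.1, the replicate block and leaving out each library. Named microRNAs were all members, the 5 most like the mean of miR-182-5p and miR-183-5p, the 3 FOXO1-linked microRNAs and those of the marker lists. A rule on equal mature seeds was not used here. Members and lists were chosen with earlier results of these data known. Intervals cover counting error only, except those of limma.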

Additional observations from a re-analysis of the deposited data

How the results depend on the processing

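Of 216 values for single members and comparisons under the alternatives, 206 kept their direction. Part of these could not change. The fit without the filter and the *Spalax* replicate block leave the log2 fold change as it is. So does leaving out a library of a group that is not compared. A reversal occurred for miR-183-5p in *Spalax* fibrosarcoma, whose log2 fold change ranged from -0.16 to 1.99 when a library was left out, and for miR-182-5p in mouse fibrosarcoma, from -0.74 to 0.74. The other reversals were of values near 0, for the *Spalax* uninjected sides, which ranged from -0.74 to 1.07 for miR-182-5p, from -1.38 to 0.76 for miR-183-5p and from -0.44 to 1.17 for miR-96-5p, with -0.018 for miR-182-5p when totals were the scale. In granuloma all 3 members were called by edgeR, by DESeq2 and by limma with totals as the scale (adjusted p = 0.0124, 0.0158 and 0.00972), beside 47.4%, 52.3% and 67.8% of all microRNAs, while miR-96-5p missed the threshold without the filter (limma, adjusted p = 0.0750) and with a pseudocount of 0.1 (limma, adjusted p = 0.0554). The replicate block ended no call of a member and added those of miR-182-5p and miR-183-5p in granuloma. In mouse fibrosarcoma, calls were added by DESeq2 for miR-183-5p (adjusted p = 0.0478) and miR-96-5p (adjusted p = 0.00774), beside 66.2% of 541, by edgeR for miR-96-5p (adjusted p = 0.0341), beside 56.9%, and without the IS library of M1019 for miR-96-5p (limma, adjusted p = 0.0362), beside 51.2%. Where a cause of these shifts is not given, the cause was not tested.

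With all libraries, limma called 216 microRNAs in granuloma, 167 in the *Spalax* and 316 in the mouse fibrosarcomas, and 17 for the difference between the *Spalax* tumor types. Leaving out a library gave 129 to 234, 77 to 176, 213 to 320 and 0 to 39, in that order. The difference gave 61 calls in DESeq2, 0 without the filter, 0 with a pseudocount of 0.1 and 5 with the replicate block. The mean within-animal difference of miR-182-5p was 4.04 with totals as the scale (exact sign-flip test, p = 0.0312). Leaving out an animal, the mean ranged from 1.34 to 2.78 for miR-182-5p, from 1.495 to 2.27 for miR-183-5p and from 2.26 to 3.08 for miR-96-5p, and 5 pairs cannot go below p = 0.0625 in that exact test. Pearson's r then ranged from 0.752 to 0.984 for miR-182-5p with miR-183-5p, from 0.755 to 0.979 for miR-182-5p with miR-96-5p and from 0.731 to 0.970 for miR-183-5p with miR-96-5p, and was lowest for each without Sp976.

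Each *Spalax* group holds 2 animals, and miR-96-5p had 1 to 5 reads in each *Spalax* UIS library. Time after injection differed between the *Spalax* tumor types and cannot be told apart from them.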
